A study of Cricetiscus sungorus with 41 samples.

Results

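Blood of Djungarian hamsters that stayed normothermic (NT) was compared between zeitgeber time 7 (ZT07, 7 h after the lights came on) and ZT01, to ask what changed in blood RNA over the light phase in animals without torpor. The comparison took every library labelled NT at these times, 4 at ZT07 and 6 at ZT01, of 41 libraries in the series. All 10 were wild-type animals of the Djungarian breed, and the RNA came from frozen blood pellets. By label the ZT07 group held 1 male and 3 females and the ZT01 group 4 males and 2 females, so that sex and time of day were partly mixed. The counts of UTY, a gene of the Y chromosome, lay at 17 to 71 in the 5 libraries labelled male and at 0 to 2 in the 5 labelled female. By this gene the labels held in all 10. DDX3Y, another sex-linked gene, had 112 to 359 counts in the libraries labelled male. Those labelled female had 50 to 73, except NT ZT07 replicate 4 with 393. The study's methods describe animals kept in a short photoperiod that all showed spontaneous daily torpor on other days (a body temperature below 32 °C for at least 30 min), with NT animals being those that did not enter torpor on the day of sampling. Those methods were written for animals sampled at ZT04, aged 32 ± 4 weeks, and the age and acclimation of the ZT01 and ZT07 animals are not given separately in the sources used here. For a comparison with animals labelled HT, the study's name for hamsters that showed torpor on the day of sampling, 5 libraries at ZT01 and 4 at ZT07 were used. By label these were wild-type too, with 2 males and 3 females at ZT01 and 1 male and 3 females at ZT07. The study places the torpor nadir at ZT04, so HT animals at ZT01 were sampled ahead of that time. Nothing in the labels says that libraries of a group came from separate litters or extraction days, so p-values measure the spread between these animals as sampled.

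Blood carries its own daily rhythm. The core clock is a feedback loop in which CLOCK and ARNTL drive transcription of the PER and CRY genes, whose products repress them, while NR1D1 and NR1D2 repress ARNTL. Adrenal glucocorticoids also rise and fall once a day and act through the receptor NR3C1 on targets such as FKBP5 and TSC22D3, and the numbers of neutrophils and lymphocytes in the circulation shift with the time of day as cells are released from, and return to, bone marrow and tissues. In RNA from whole blood, fewer cells of a type and less RNA per cell cannot be told apart.

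Most reads came from red cell RNA. Haemoglobin genes took 89.2% to 93.0% of the counts in the 6 ZT01 libraries and 85.7% to 89.1% in the 4 ZT07 libraries, without overlap. The mean share was 88.0% ± 1.56 (SD, n = 4) at ZT07 and 90.3% ± 1.45 (SD, n = 6) at ZT01, so that ZT07 minus ZT01 came to -2.28 points of percent (p = 0.00952 by an exact permutation test, 2-sided, over 210 splits, which is the smallest p these group sizes allow). Total counts ran from 52775596 to 70007351 per library. All other genes together had 3702931 to 6898264 counts at ZT01 and 6105633 to 9256883 at ZT07. NT ZT01 replicate 4 had both the highest haemoglobin share and the lowest number of other counts, and NT ZT07 replicate 2 had the lowest share. In the animals labelled female alone the share differed by -3.71 points and in those labelled male by -0.85 points, each given as a value without a test. The share was carried by 2 symbols. HBD, a beta-type globin in humans, took 48.7% to 51.6% of the counts at ZT01 and 40.7% to 49.6% at ZT07, and HBA2, an alpha-type globin, took 37.9% to 41.4% and 39.2% to 48.3%. Human symbols had been given to hamster contigs by their best match, so these near-identical genes are uncertain as individual values. For HBA and HBB symbols alone the difference of means was 1.59 points in the other direction (exact permutation test, p = 0.619). It rested on NT ZT07 replicate 4 with 48.4%, where the other ZT07 libraries had 39.3% to 40.2%. The median of this share was 39.8% at ZT07 and 40.6% at ZT01.

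**Figure D1:**
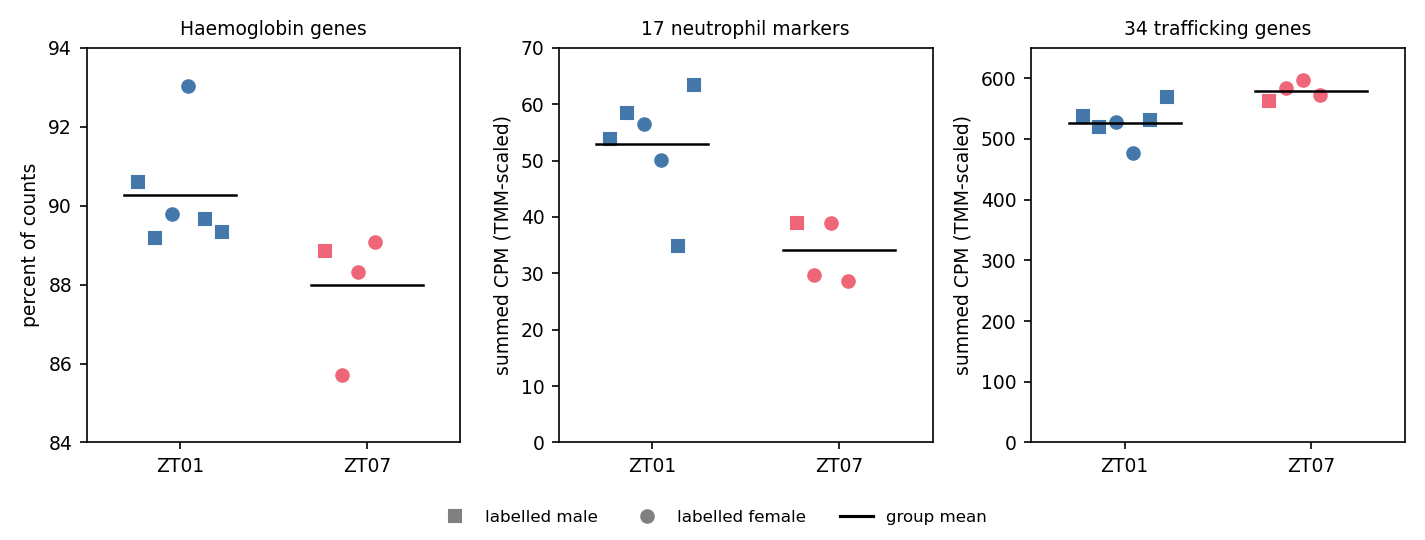
Percent of counts in haemoglobin genes (left; the axis starts at 84%), summed CPM of 17 neutrophil markers (middle) and summed CPM of 34 leukocyte trafficking genes (right) in each NT library at ZT01 (blue, n = 6) and ZT07 (red, n = 4). Squares are animals labelled male, circles animals labelled female, and bars are group means; the haemoglobin share does not overlap between the groups, while 1 ZT01 library (34.9) lies within the ZT07 range of the neutrophil sum.

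No gene passed the test over all genes. Of 10772 genes tested with edgeR's quasi-likelihood test, 0 (0%) had a Benjamini-Hochberg adjusted p under 0.05, and the smallest adjusted p was 0.297. At an unadjusted p under 0.05 there were 483 genes (4.48%), 225 with the higher level at ZT07 (2.09%) and 258 with the lower (2.4%). That share is no larger than the threshold of 0.05 passes by chance. DESeq2 called 10 genes on the same counts, 3 higher and 7 lower at ZT07, and limma voom called 0. With the study's cut-offs on edgeR's unadjusted p and fold change, 221 genes (2.05%) were higher and 256 (2.38%) lower. The values of the groups did not overlap for 56 genes that were higher at ZT07 (0.52%) and 51 that were lower (0.473%). In both directions together this was 0.993% of the genes. A random split of 4 against 6 separates the groups with a probability of 0.00952, so this share is near that of chance. The median log2 fold change over all genes tested was -0.01, and 48.1% of the genes lay above 0. What follows therefore describes levels and differences, given as log2 fold changes of ZT07 over ZT01 with their standard errors. Levels are CPM, counts relative to the library size scaled by edgeR's TMM method, haemoglobin included.

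Among genes with a mean of at least 2 CPM at ZT07, those of lowest p with the higher level at ZT07 were CYP2D6, FKBP5, SKI, PER1 and PHF2. These genes, and the lower ones named below, were picked by the p of this same comparison. Groups that lie apart thus follow from the choice. FKBP5, a co-chaperone of the glucocorticoid receptor and one of its targets, stood at 1.35, 0.717, 1.26, 0.839, 1.06 and 1.17 CPM in the 6 ZT01 libraries and at 1.77, 3.92, 3.15 and 1.81 CPM in the 4 ZT07 libraries. Each ZT07 animal lay above each ZT01 animal, with the 2 highest values in animals labelled female, and the log2 fold change was 1.31 ± 0.26 (SE; edgeR adjusted p = 0.298; DESeq2 adjusted p = 0.01). DDIT4, a gene below that level and an inhibitor of mTORC1 that glucocorticoids and energy stress induce, was at 0.413 to 0.906 CPM at ZT01 and at 1.05, 1.57, 1.55 and 1.53 CPM at ZT07. These groups did not overlap either, and the lowest of the ZT07 values was that of the only male (log2 fold change 1.33 ± 0.26, edgeR adjusted p = 0.298, DESeq2 adjusted p = 0.00267). In the females alone the difference of DDIT4 was 1.77 ± 0.36 and in the males alone 0.79 ± 0.49.

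PER1, a repressor of the core clock that glucocorticoids also induce, was at 3.45, 3.61, 3.56 and 3.36 CPM at ZT07 and at 2.55, 1.98, 2.48, 1.43, 2.03 and 2.84 CPM at ZT01. All ZT07 values lay above all ZT01 values (log2 fold change 0.64 ± 0.17, edgeR adjusted p = 0.951). CYP2D6, in humans a drug-metabolising enzyme, ran from 3.05 to 5.03 CPM at ZT01 and from 6.11 to 7.79 CPM at ZT07 (0.82 ± 0.15, edgeR adjusted p = 0.297, DESeq2 adjusted p = 0.00208). It belongs to a large gene family, so which hamster gene the symbol stands for is uncertain. SKI, a repressor of TGF-beta signalling, was at 5.72 to 6.04 CPM in the 3 females at ZT07 and at 2.98 CPM in the male, where ZT01 animals had 2.10 to 3.68 CPM. Its log2 fold change was 0.81 ± 0.21 over all animals, 1.08 ± 0.27 in females and -0.002 ± 0.30 in males, and the difference between the sexes was not tested. PHF2, a histone demethylase, had means of 4.63 and 3.12 CPM at ZT07 and ZT01 (0.56 ± 0.16).

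Among genes with a mean of at least 2 CPM at ZT01, those of lowest p with the lower level at ZT07 were PADI4, CLEC12A, MMP9, S100A8 and CXCR2, all known from neutrophils and other myeloid cells. PADI4, the enzyme that citrullinates histones when neutrophils release extracellular traps, stood at 7.30, 9.88, 7.59, 7.26, 6.49 and 7.90 CPM at ZT01 and at 4.38, 3.52, 4.76 and 3.55 CPM at ZT07. The groups were well apart (log2 fold change -0.93 ± 0.16, edgeR adjusted p = 0.297, DESeq2 adjusted p = 0.000322), and the difference was -0.92 ± 0.24 in females and -0.83 ± 0.30 in males. CLEC12A, an inhibitory receptor of myeloid cells, was at 2.72 to 3.40 CPM at ZT01 and at 1.78, 1.62, 1.09 and 0.65 CPM at ZT07 (-1.28 ± 0.24, edgeR adjusted p = 0.297). Here too no ZT07 animal reached the lowest ZT01 animal.

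CXCR2, the chemokine receptor that draws neutrophils out of the bone marrow, was at 1.61 to 3.91 CPM at ZT01 and at 1.58, 1.07, 1.02 and 0.422 CPM at ZT07. The groups touched but did not overlap (-1.33 ± 0.34, edgeR adjusted p = 0.951). MMP9, a gelatinase stored in neutrophil granules, had 0.923 to 4.41 CPM at ZT01 and 0.351 to 0.994 CPM at ZT07, so that the highest ZT07 animal lay above the lowest ZT01 animal (-1.75 ± 0.39, edgeR adjusted p = 0.698). S100A8, a subunit of calprotectin and among the most abundant neutrophil proteins, had 2.46 to 8.39 CPM at ZT01 and 1.18 to 3.64 CPM at ZT07 (-1.53 ± 0.36, edgeR adjusted p = 0.799). Its difference was -2.03 ± 0.35 in females and -0.69 ± 0.52 in males. CLEC5A (-1.96 ± 0.37), RETNLB (-1.64 ± 0.34) and NLRP12 (-1.43 ± 0.32) (values of edgeR) were called by DESeq2 together with PADI4, CLEC12A, MMP9 and S100A8, while its 3 higher calls were CYP2D6, DDIT4 and FKBP5.

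**Figure D2:**
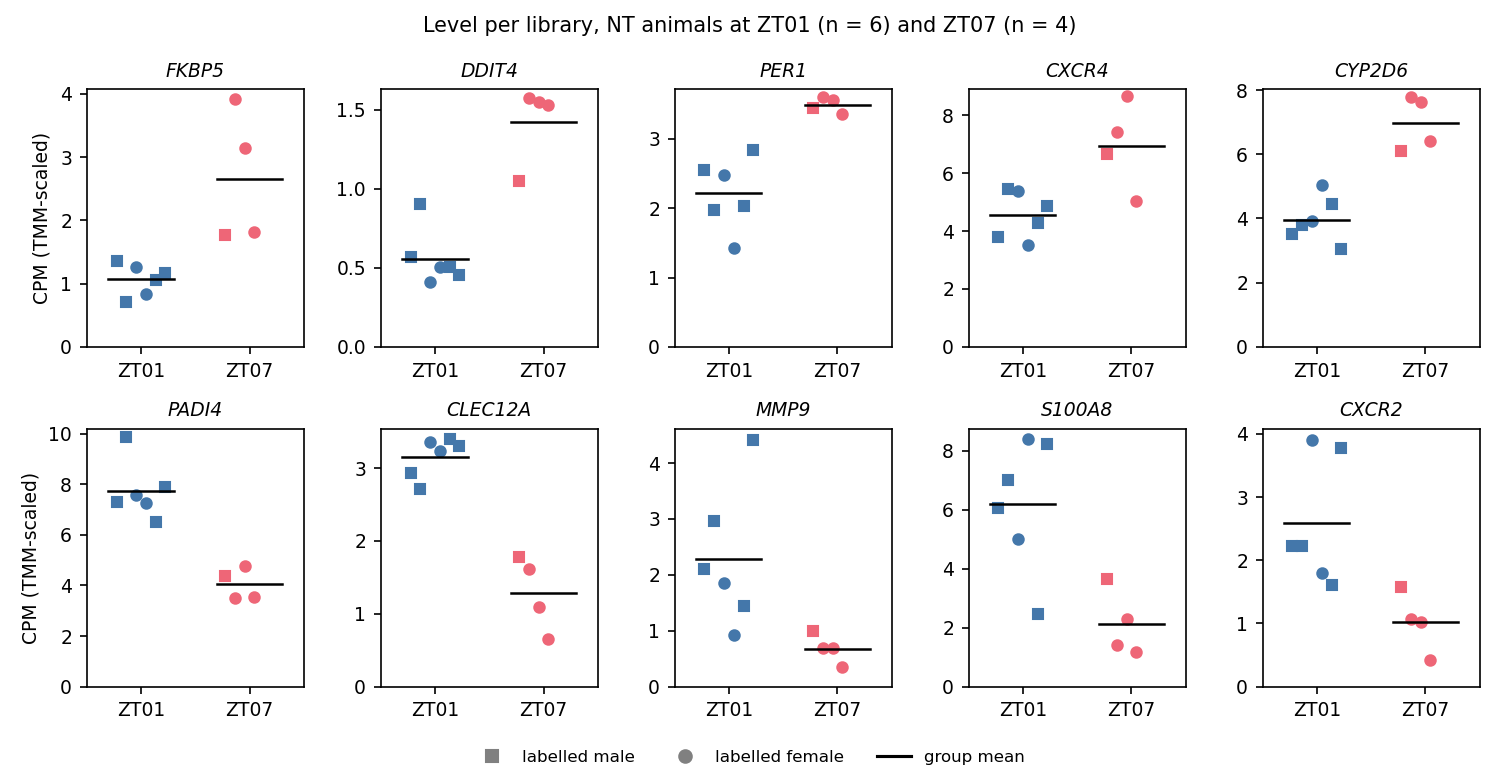
Level in CPM (TMM-scaled, linear axes from 0) of 10 genes in each NT library at ZT01 (blue, n = 6) and ZT07 (red, n = 4); squares are animals labelled male, circles animals labelled female and bars group means. FKBP5, DDIT4, PER1, CYP2D6, PADI4, CLEC12A and CXCR2 show no overlap between the groups, whereas CXCR4, MMP9 and S100A8 overlap.

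The neutrophil markers as a list showed the same side as these genes, but since several of the genes named above are its members, the list adds no separate evidence. Of 22 markers listed, 17 passed the filter on low counts. At ZT07, 15 of the 17 had the lower level, 10 of them at an unadjusted p under 0.05 (2.4% over all genes). The groups did not overlap for 3 (PADI4, CXCR2 and LTF; 0.473% over all genes), and 0 had an adjusted p under 0.05. The median log2 fold change was -0.85, beside -0.01 over all genes. LTF, the iron-binding lactoferrin of secondary granules, had means of 0.513 and 1.69 CPM at ZT07 and ZT01 (-1.74 ± 0.47), S100A9, the partner of S100A8, 1.33 and 3.46 CPM (-1.36 ± 0.52), and CSF3R, the receptor for the growth factor of granulocytes, 3.53 and 5.32 CPM (-0.60 ± 0.22). Other members did not share this size of difference, and 2 of the 17 lay above 0. NCF1, a subunit of the phagocyte oxidase that other myeloid cells express as well, stood at -0.16 ± 0.18, and LCN2, another granule protein, at -0.35 ± 0.47. MPO, ELANE and MMP8, proteins made in immature neutrophils, were too low to be tested. The summed level of the 17 markers was 34.9 to 63.5 CPM at ZT01 and 28.5 to 39.0 CPM at ZT07. The 4 ZT07 animals had 12 to 15 of the 17 markers below the ZT01 median, while NT ZT01 replicate 5, with 15 below it, was like them. The list's median lay between -0.97 and -0.64 in all 24 alternative settings.

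Among markers of other white cells, the list medians were 0.10 for T cells (19 tested; the transcription factor TCF7 0.54 ± 0.21 and the co-receptor CD4 0.44 ± 0.18), 0.05 for B cells (15 tested), -0.05 for monocytes (16 tested), -0.21 for NK and cytotoxic cells (18 tested) and -0.59 for the 5 eosinophil and basophil markers that passed the filter, all with 0 members past the adjusted threshold. T cells had 2 of 19 members higher at an unadjusted p under 0.05 (2.09% over all genes) and B cells 1 of 15 lower (2.4% over all genes), FCER2, the low-affinity IgE receptor (-0.46 ± 0.19). The T cell median was 0.27 in females alone and -0.23 in males alone (20 tested), with TCF7 at 1.002 ± 0.29 and -0.19 ± 0.28 and CD4 at 0.84 ± 0.25 and -0.15 ± 0.25, and the difference between the sexes was not tested. The 16 platelet markers had a median of 0.21, with 13 above 0 and 2 higher at an unadjusted p under 0.05 (2.09% over all genes), THBS1 (0.89 ± 0.37) and ITGA2B, the platelet integrin subunit (0.52 ± 0.23). The platelet median was -0.04 in females alone and 0.41 in males alone. Of the MHC class II list, CIITA and CD74 had counts and stood at 0.10 ± 0.18 and 0.06 ± 0.20. Markers of liver summed to 0.731 to 1.93 CPM and those of heart muscle to 1.47 to 13.1 CPM over the 10 libraries. Of the heart muscle genes TNNT2 had means of 6.09 CPM at ZT01 and 5.63 CPM at ZT07.

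Red cell genes were on the low side at ZT07 but rested in part on a single library. Of 19 erythroid markers 18 had the lower level at ZT07, 3 at an unadjusted p under 0.05 (2.4% over all genes), with a median of -0.42. CA2, a carbonic anhydrase, had 113 to 372 CPM at ZT01 and 114 to 134 CPM at ZT07 (-0.70 ± 0.27), and AHSP, the chaperone of alpha-globin, had means of 48.0 and 26.6 CPM at ZT01 and ZT07 (-0.85 ± 0.33). The 23 genes of haem synthesis and iron had a median of -0.39, with 20 below 0, 4 of them at an unadjusted p under 0.05 (2.4% over all genes). These were the iron exporter SLC40A1 (-0.45 ± 0.16), the haem enzymes CPOX (-0.42 ± 0.18) and PPOX (-0.39 ± 0.17), and the ferritin light chain FTL (-0.88 ± 0.38). The 6 haemoglobin genes tested had a median of -0.46, all below 0. Without NT ZT01 replicate 4, the medians became -0.19 for both the erythroid and the haem list and -0.04 for the haemoglobin genes, and CA2, AHSP and FTL stood at -0.42, -0.47 and -0.44. The erythroid median was -0.88 in females alone and -0.14 in males alone.

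**Figure D3:**
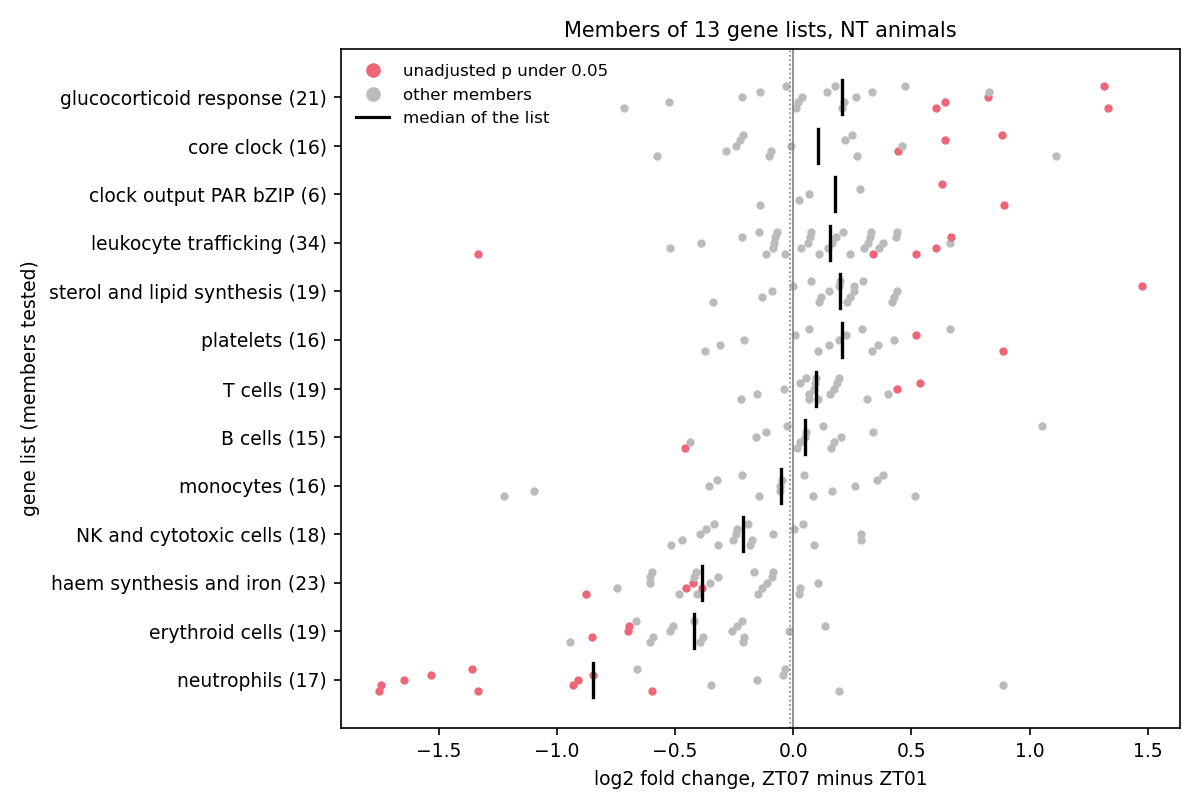
Log2 fold change of ZT07 over ZT01 for each tested member of 13 gene lists in NT animals (10 libraries); red points have an unadjusted p under 0.05, grey points do not, black bars are list medians and the dotted line is the median of all genes tested (-0.01). Among the 13 lists shown, the neutrophil list has the lowest median (-0.85) and the erythroid (-0.42) and haem lists (-0.39) come next. The other medians shown lie between -0.21 and 0.21. Lists not shown include eosinophils and basophils (-0.59), haemoglobin (-0.46) and proliferation (-0.24).

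Glucocorticoid-responsive genes were mixed. Of 21 tested, 16 lay above 0, and the median was 0.21. At ZT07, 5 had a higher level at an unadjusted p under 0.05 (2.09% over all genes), 3 of them without overlap (0.52% over all genes). Beside FKBP5, DDIT4 and PER1 these were CXCR4, the receptor that retains leukocytes in bone marrow, and IL7R, the interleukin-7 receptor of T cells. FKBP5, DDIT4 and PER1 were named above from the same values, so this list adds no separate evidence. CXCR4 was at 3.52 to 5.47 CPM at ZT01 and at 6.66, 7.42, 8.65 and 5.04 CPM at ZT07, so that 1 ZT07 animal overlapped the ZT01 range (0.60 ± 0.18, edgeR adjusted p = 0.951). IL7R had 2.77 to 12.7 CPM at ZT01 and 7.27 to 17.9 CPM at ZT07 (0.82 ± 0.33). TSC22D3, a classical target also known as GILZ, had means of 37.4 and 29.7 CPM at ZT07 and ZT01 (0.33 ± 0.20), ZFP36 stood at 0.01 ± 0.14, SGK1, a target kinase, at -0.52 ± 0.27, and the receptor NR3C1 itself at -0.03 ± 0.18. The list's median was 0.25 in females alone and -0.01 in males alone.

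Of the core clock, 16 genes were tested, 8 on each side of 0, with a median of 0.10, 3 higher at ZT07 at an unadjusted p under 0.05 (2.09% over all genes) and 2 of these, PER1 and NR1D2, without overlap (0.52% over all genes). The third was NR1D1, like NR1D2 a repressor. PER1 is also counted in the glucocorticoid list. NR1D2 was at 2.33 to 3.25 CPM at ZT01 and at 3.47, 3.54, 3.87 and 3.36 CPM at ZT07, without overlap (0.44 ± 0.14, edgeR adjusted p = 0.951), and NR1D1 had means of 1.003 and 0.554 CPM at ZT07 and ZT01 with overlap (0.89 ± 0.38). PER2 and PER3, the paralogs of PER1, stood at 0.46 ± 0.27 and 1.11 ± 0.58, the latter at 0 to 0.487 CPM at ZT01 and so near the limit of detection. The activators ARNTL (-0.21 ± 0.21), CLOCK (-0.01 ± 0.22) and NPAS2 (-0.23 ± 0.29) differed by no more than their error, as did CRY2 (0.27 ± 0.41) and NOCT (0.07 ± 0.50). CRY1 stood at 0.25 ± 0.22 and CSNK1D, the kinase that marks PER proteins for degradation, at 0.22 ± 0.13, while RORA, an activator of ARNTL, stood at -0.58 ± 0.49, CIART at -0.28 ± 0.36, BHLHE40 at -0.10 ± 0.21 and BHLHE41 at -0.24 ± 0.54. Among clock outputs, TEF, a transcription factor of the PAR bZIP family, was at 0.490 to 0.961 CPM at ZT01 and at 1.44, 1.26, 1.45 and 0.826 CPM at ZT07 (0.89 ± 0.25, edgeR adjusted p = 0.951), and only the lowest ZT07 animal overlapped the ZT01 range. NFIL3, which competes for the sites of this family, stood at 0.63 ± 0.27, WEE1 at 0.28 ± 0.24, USP2 at 0.02 ± 0.49 and NAMPT at -0.14 ± 0.33. DBP and HLF, the other members of the family, were too low to be tested.

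Leukocyte trafficking genes had a median of 0.16 over 34 tested, with 4 higher at an unadjusted p under 0.05 (CXCR4, ICAM1, ITGAM and S1PR1; 2.09% over all genes) and 1 lower (2.4% over all genes), CXCR2. Since CXCR4 is also in the glucocorticoid list and CXCR2 in the neutrophil list, these lists are not independent. ICAM1, an adhesion molecule, had means of 1.61 and 1.11 CPM at ZT07 and ZT01 without overlap (0.52 ± 0.20). S1PR1, by which lymphocytes leave lymph nodes, had means of 18.1 and 14.3 CPM (0.34 ± 0.15). The summed level of the 34 genes was 477 to 568 CPM at ZT01 and 563 to 597 CPM at ZT07, with an overlap of the groups.

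Each list had 0 members past the adjusted threshold. The 2 sex-linked genes tested, UTY (-1.96) and DDX3Y (-0.20), had a median of -1.08, where the groups differ in sex. The 2 endothelial genes tested, PECAM1 and VWF, stood at 0.21 ± 0.19 and 0.29 ± 0.27. Proliferation genes had a median of -0.24 over 31 tested, with AURKA (-0.92 ± 0.32) and BIRC5 (-1.08 ± 0.47), both acting in mitosis, lower at an unadjusted p under 0.05 (2.4% over all genes). Without NT ZT01 replicate 4 the median became -0.10 and AURKA stood at -0.56. Sterol and lipid synthesis genes had a median of 0.20 over 19 tested, with 15 above 0 and 1 higher at an unadjusted p under 0.05 (2.09% over all genes). This was the elongase ELOVL6 (1.47 ± 0.59), at a mean of 0.328 CPM at ZT07 and 0.111 CPM at ZT01. Heat shock and chaperone genes had a median of -0.03 over 24 tested, with HSP90AA1, the inducible cytosolic HSP90, at 21.6 and 31.2 CPM at ZT07 and ZT01 (-0.53 ± 0.16). Of this list 2 members were lower (2.4% over all genes) and 2 higher (2.09% over all genes) at an unadjusted p under 0.05. The higher ones were the collagen chaperone SERPINH1 (0.69 ± 0.29, without overlap) and DNAJB4 (0.57 ± 0.25). The cold-induced RNA binding list (8 tested) had a median of -0.14, with 1 member above 0 and 7 below. Its members RBM3 and CIRBP, which rise in hypothermic cells, stood at 0.23 ± 0.16 and -0.23 ± 0.19. Genes of the respiratory chain (37 tested) had a median of -0.13, the transcription machinery (35) -0.12, NAD metabolism and sirtuins (14) -0.12, antioxidants (24) -0.10, fatty acid oxidation (21) -0.09, splicing (36) -0.07, proteasome (38) -0.06, autophagy (33) -0.06, ribosome biogenesis (35) -0.06, glycolysis (25) -0.03, cytosolic ribosomal proteins (77) -0.03, interferon-stimulated genes (30) -0.03, the unfolded protein response (19) -0.01, cytokines and receptors (37) 0.01, immediate early genes (19) 0.04 and Toll-like receptors and their signalling (22) 0.07. Without NT ZT01 replicate 4 the median turned to 0.10 for ribosomal proteins, 0.10 for glycolysis, 0.06 for antioxidants and 0.004 for the unfolded protein response, and to -0.02 for Toll-like receptors and -0.01 for cytokines. Of the 77 ribosomal protein genes, 1 was lower at an unadjusted p under 0.05 (2.4% over all genes), RPS6 (-0.82 ± 0.27).

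Levels at the other times placed these differences in the day, on a scale set over 36 NT and HT animals and given as means ± SD without a test. In NT animals FKBP5 stood at 1.08 ± 0.27 CPM at ZT01 (n = 6), 1.59 ± 0.65 at ZT04 (n = 4), 2.73 ± 1.10 at ZT07 (n = 4) and 3.33 ± 1.31 at ZT16 (n = 4), where ZT16 falls in the dark phase. PER1 followed the same order, at 2.25 ± 0.55, 2.76 ± 0.44, 3.58 ± 0.15 and 4.14 ± 1.2 CPM, and for both genes ZT07 and ZT16 differed by less than their spread. TEF was at 0.671 ± 0.16, 0.886 ± 0.22, 1.28 ± 0.31 and 0.655 ± 0.15 CPM, so that its ZT16 level was like that at ZT01. PADI4 went from 7.81 ± 1.17 at ZT01 over 6.08 ± 2.14 at ZT04 to 4.15 ± 0.67 at ZT07 and was at 5.78 ± 1.80 CPM at ZT16. CXCR2 was at 2.63 ± 1.07, 1.78 ± 0.89, 1.05 ± 0.49 and 1.78 ± 1.10 CPM, each step being within the spread. All NT animals at ZT04 and ZT16 were labelled male.

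**Figure D4:**
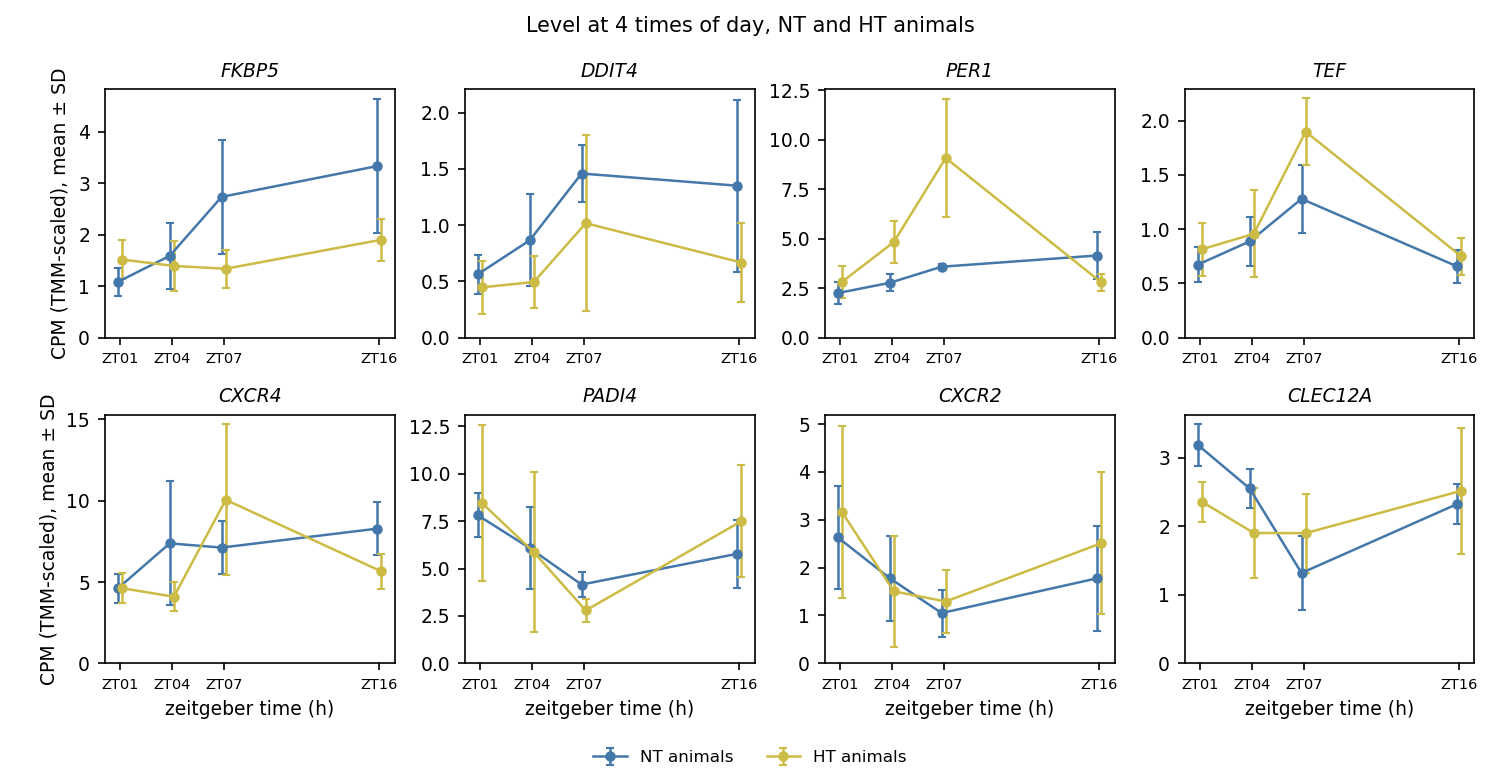
Mean level ± SD in CPM (TMM-scaled over 36 animals) of 8 genes against zeitgeber time in NT animals (blue; n = 6 at ZT01 and 4 at each other time) and HT animals (yellow; n = 5, 5, 4 and 4). FKBP5 in NT animals is higher in mean at each later time (1.08 to 3.33 CPM), PADI4 and CXCR2 are lowest at ZT07 in both groups, and PER1 at ZT07 is higher in HT (9.07 CPM) than in NT animals (3.58 CPM).

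Whether these differences over the light phase were those of animals labelled HT was asked in a fit of 19 animals. UTY counts go against the sex label of 2 of the 4 HT ZT07 libraries, replicate 1 (labelled male, 8 counts) and replicate 2 (labelled female, 52 counts), so the counts of this comparison are also given without them. The fit itself had no sex term, and its alternative with sex as a covariate rests on these labels. Leaving out both kept 17 libraries and shrank the HT ZT07 group, and what the smaller group does to the counts was not tested. Of 11150 genes in the fit of 19 animals, 31 (0.278%) had a difference between HT and NT animals in the ZT07 over ZT01 change at an edgeR adjusted p under 0.05, 17 with the HT change above the NT change and 14 below. At an unadjusted p under 0.05 there were 1473 (13.2%). Without these 2 libraries 0 of 11487 genes passed by edgeR's quasi-likelihood test, and 973 had an unadjusted p under 0.05; DESeq2 called 191 on all 19 animals and 26 without these 2. Leaving out single animals gave 1 to 52, with 1 gene left without HT ZT01 replicate 3, HT ZT07 replicate 4 or NT ZT07 replicate 3, and the count stayed within 1.5 times of 31 only without NT ZT01 replicate 1, 4 or 6 (31, 37 and 43). In the same fit, 528 genes (4.74%) changed in HT animals, 277 up and 251 down, and 0 in NT animals, where 601 (5.39%) had an unadjusted p under 0.05. Without the 2 libraries these counts were 17 in HT animals, 9 up and 8 down, and 0 in NT animals, where 551 had an unadjusted p under 0.05.

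The genes named here were chosen by the test of this difference, so that unlike changes in NT and HT animals follow from the choice. In NT animals they were flat or on the other side of 0 from HT animals. OGA, which takes the O-GlcNAc sugar off proteins, was at 14.1, 19.8, 16.3, 18.5, 22.1 and 17.5 CPM at ZT01 and at 14.3, 13.5, 13.05 and 10.4 CPM at ZT07 in NT animals. In the 19-animal fit its change was -0.47 ± 0.16 in NT and 1.11 ± 0.16 in HT animals, a difference of 1.59 ± 0.23 (edgeR adjusted p = 0.00706; 0.0688 without the 2 libraries). PTBP2, a splicing repressor, had -0.44 ± 0.21 in NT and 1.27 ± 0.21 in HT animals (difference 1.71 ± 0.30, edgeR adjusted p = 0.0171). RAB40C, GATAD2B and GTPBP10 had NT changes of -0.01, -0.19 and -0.47 against HT changes of 0.90, 0.84 and 0.99. In the other direction PPP1R10, a regulatory subunit of protein phosphatase 1, had 0.37 ± 0.16 in NT and -1.07 ± 0.17 in HT animals (difference -1.44 ± 0.23, edgeR adjusted p = 0.0171). LCP1, the leukocyte actin-bundling protein L-plastin, stood at 0.03 ± 0.15 in NT and -1.18 ± 0.16 in HT animals (difference -1.21 ± 0.21), and CPNE1, WBP1L and NXPE4 at 0.01, 0.30 and 0.29 in NT against -1.04, -1.03 and -1.03 in HT animals.

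The genes and lists that led the NT comparison were set beside the HT change in the same way. FKBP5, PER1, CXCR2 and PADI4 were chosen by their NT change, so a smaller change in HT animals can follow from the choice. FKBP5 had 1.33 ± 0.26 in NT and -0.19 ± 0.27 in HT animals (difference -1.52 ± 0.38, edgeR adjusted p = 0.101), and PER1 0.66 in NT and 1.69 ± 0.22 in HT animals (difference 1.04 ± 0.31, edgeR adjusted p = 0.142). CXCR2 stood at -1.32 in NT and -1.30 ± 0.41 in HT animals, a difference of 0.02 ± 0.56 whose error is wide beside either change. PADI4 was -0.92 in NT and -1.60 ± 0.28 in HT animals (difference -0.69 ± 0.37, edgeR adjusted p = 0.440). The 19 neutrophil markers of this fit had medians of -0.82 in NT and -0.90 in HT animals, with 0 differences past the adjusted threshold and 2 at an unadjusted p under 0.05. Over the 17 platelet markers the medians were 0.24 in NT and -0.39 in HT animals, with 0 adjusted and 5 unadjusted differences, and over the 34 trafficking genes 0.17 and -0.29, with 1 adjusted and 9 unadjusted differences. Beside these stand 0.278% adjusted and 13.2% unadjusted differences over all genes. Without the 2 libraries the 3 lists had 0 adjusted differences and 1, 5 and 6 unadjusted ones, with HT medians of -0.88, -0.47 and -0.21. Over all genes that fit had 973 unadjusted differences among 11487 tested.

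**Figure D5:**
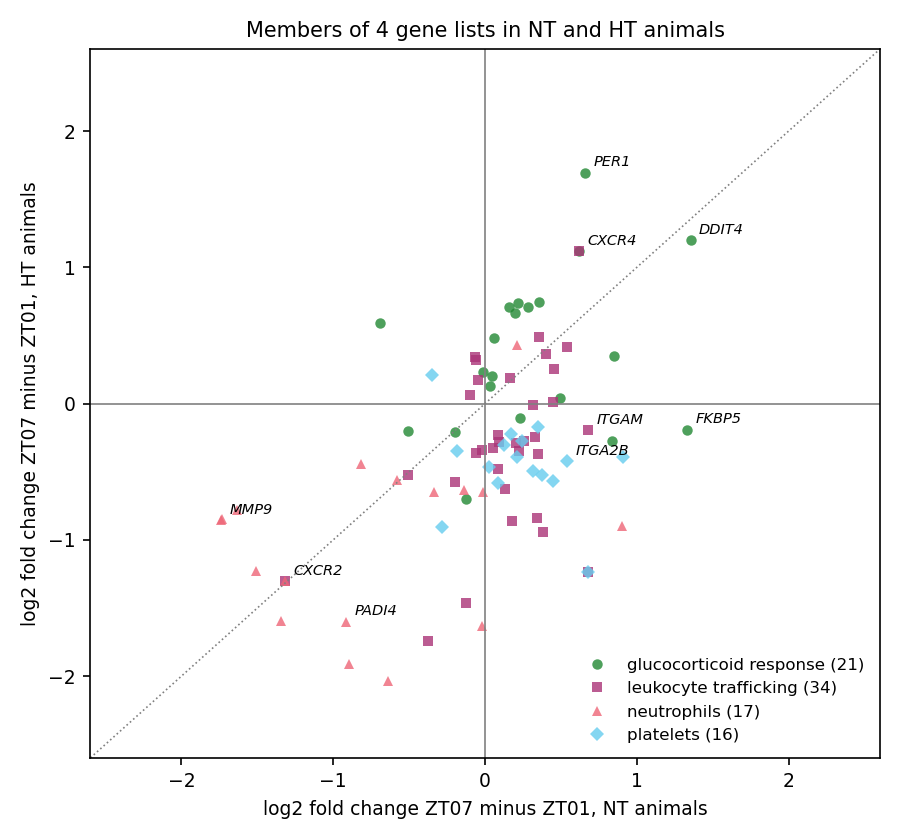
Log2 fold change of ZT07 over ZT01 in HT animals (vertical) against that in NT animals (horizontal), from the 19-animal fit, for members of the glucocorticoid (green circles), trafficking (purple squares), neutrophil (red triangles) and platelet lists (blue diamonds) that were tested in NT animals; the dotted line marks equal change. Most neutrophil markers lie below 0 in both groups, platelet markers lie mostly right of 0 and below it, and FKBP5 is at 1.33 in NT and -0.19 in HT animals.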

How the data were processed

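RNA of frozen blood pellets was sequenced in paired-end mode by the authors. Per the study's methods they trimmed the reads with trimmomatic, assembled a transcriptome de novo with trinity from all samples, gave each contig the human gene symbol of its best protein match, aligned with hisat2 and counted with custom scripts. The deposited values are raw counts, whole numbers for 20220 human gene symbols in 41 libraries, with no normalization, and a symbol can pool several contigs. In the 10 libraries 67.09% of the values between 1 and 49 were even, an excess whose cause was not tested; a small count may thus not be that many fragments. None of 45 pairs of libraries was a duplicate (lowest chi-square over its degrees of freedom 15.4). Errors given are those between animals.

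The counts were analysed in R 4.3.3 with edgeR 4.0.16: TMM scaling, filterByExpr (minimum count 10, minimum total 15), which 10772 of 13828 genes with a count passed, and the quasi-likelihood test with Benjamini-Hochberg adjustment over all genes tested (threshold 0.05), on the 4 NT ZT07 and 6 NT ZT01 libraries without covariate. The HT and NT changes were compared as an interaction over 19 libraries. The haemoglobin share was compared by an exact permutation test. Alternatives were RLE scaling, no filter, halved counts, haemoglobin genes left out, DESeq2 1.42.0, limma 3.58.1 (voom), the study's cut-offs, each library left out, sex as a covariate or alone, the replicate block and larger fits. Genes were named by a rule: the 5 of lowest p in each direction with at least 2 CPM in the higher group, the 3 of lowest p in a list, each tested clock gene, and up to 5 in each direction for the interaction. SERPINB3, CLEC5A, RETNLB, NLRP12 and the further members named in the list paragraphs fall outside it and were named after their values were seen. The comparison and its 26 gene lists and 12 marker lists were chosen with earlier results of these data known. A few list members are not reported here. Plots used Python 3.11.15 and matplotlib 3.10.9.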

Additional observations from a re-analysis of the deposited data

Results flagged for a closer look

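Of 282 groups of values examined for a single library far from the others of its group, 28 had one. The cut-offs would pass about 1 in 20 groups of independent, normally distributed values. The values of a library share 1 scaling factor and the genes were named from these data, so the rates cannot be compared. NT ZT01 replicate 4 held 16 of the 28, all as the highest of its group. It had a haemoglobin share of 93.0%, where the next library had 90.6%, and CPM values of 5190 for BPGM, 10.7 for PSMC1, 26.1 for MAP1LC3A, 116 for PRDX2, 33.0 for HBQ1, 161 for FTL, 159 for UBE2L6, 11.2 for AURKA, 6.33 for NKG7, 372 for CA2, 103 for AHSP, 1.68 for TF and 0.881 for DNAJB4. Its CPM of HBD (1150000) and HBA2 (923000) stand so high because the TMM factor of this library was 0.448, by which each of its values is divided. In NT ZT07 replicate 1, the only male of its group, UTY was highest (0.313 CPM), RPS6 was highest (5.52), DNAJB4 was highest (1.17), and SKI (2.98) and DDIT4 (1.05) were lowest. In NT ZT07 replicate 4, DUSP2 (2.51), SESN2 (2.25), CRY2 (12.1) and DDX3Y (6.90) were highest. In NT ZT07 replicate 2, ATF6 was highest (1.62) and FCRLA lowest (1.54). DDIT4 was highest in NT ZT01 replicate 2 (0.906).

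The change from ZT01 to ZT07 differed between HT and NT animals, by the interaction test of edgeR with adjusted p under 0.05 over 19 libraries, for 12 of the named genes. The difference on the log2 scale was 1.585 for OGA, 0.908 for RAB40C, 1.03 for GATAD2B, 1.461 for GTPBP10, 1.71 for PTBP2, 1.076 for LTV1 and 1.239 for IRAK3, and -1.441 for PPP1R10, -1.334 for WBP1L, -1.211 for LCP1, -1.311 for NXPE4 and -1.055 for CPNE1. Without the 2 HT ZT07 libraries whose UTY counts go against their sex label, 0 of these 12 passed the adjusted threshold, while the size of the difference was 0.897 to 1.08 times that with them.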

How the results depend on the processing

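The count of 0 genes at the adjusted threshold for ZT07 against ZT01 became 10 with DESeq2, 1 with the replicate block (SERPINB3, higher at ZT07) and 477 with the study's cut-offs (applied to edgeR's unadjusted p and fold change). It stayed at 0 in each other alternative, including each fit without 1 library, where 328 to 676 genes had an unadjusted p under 0.05. That unadjusted count was 264 in animals labelled male alone, 57 higher and 207 lower, against 483 in all 10; with sex as a covariate it was split into 147 higher and 316 lower. Correlations of same-numbered libraries were -0.10, -0.12, 0.28 and 0.32, in 2 of 4 pairs above the best other number. So few pairs cannot settle whether the replicate numbers pair the samples. The replicate block gave 724 genes at an unadjusted p under 0.05. The haemoglobin difference was 1.589 points for HBA and HBB symbols only and -2.65 to -1.52 without 1 library. The 31 genes whose change differed between HT and NT animals became 10 with sex as a covariate, 59 in a fit of all 36 animals, 191 with DESeq2, 39 with the replicate block, 1 to 52 without 1 library and 0 without both HT ZT07 libraries at odds with their sex label (26 with DESeq2), alternatives added after seeing the data, as were the haemoglobin share in males alone and the fit without NT ZT01 replicate 4 and NT ZT07 replicate 4. Of 3371 values of 141 named genes under alternatives, 111 (38 genes) changed sign, none of them past the adjusted threshold in either fit. The causes were not tested. Fits within a labelled sex had 1 male or 3 females at ZT07, the lone male being assumed to vary like the others. Genes under about 1 CPM, such as PER3, are limited by depth.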
